A study of Mus musculus with 6 samples.

Results

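The set described here is 53 genes of cell division, the mitotic kinases, kinesins and kinetochore genes and their regulators, measured by RNA-seq in sorted early large pre-B (LPre-B) cells of mouse bone marrow. Members were chosen by symbol from the known functions of the genes, and each was found in the table of normalised reads by its Entrez identifier: 53 of 53 had a row, among 13426 genes in all. The 6 libraries fell into 2 groups of 3. Ctrl cells had the genotype Upf1 Flox/Flox, Mb1 +/+, and cKO cells had the genotype Upf1 Flox/Flox, Mb1 Cre/+, so both groups carried the floxed Upf1 alleles and differed by the Cre allele. Cre was driven from the Mb1 (Cd79a) locus, which is active in the B lineage, and was meant to delete internal exons of Upf1, the RNA helicase of nonsense-mediated mRNA decay (NMD). Mice were adult, age-matched and of both sexes, and the gate included lineage-negative, B220+, surface IgM-, CD43+, CD2- and large forward scatter. The study's methods describe the replicates as biological, the labels do not tie a library to a mouse, and p-values measure the spread between these libraries.

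At the G2 to M transition, CDC25 phosphatases remove the inhibitory phosphates that WEE1 places on CDK1, and CDK1 with A- and B-type cyclins starts mitosis. Aurora and Polo-like kinases, kinesin motors and kinetochores then build the spindle and attach chromosomes to it, until the spindle assembly checkpoint is satisfied and the anaphase-promoting complex (APC/C) degrades securin and cyclin B. Large pre-B cells are among the fast-dividing cells of the marrow, and most of these genes are transcribed late in the cell cycle through promoter elements bound by the MuvB complex with B-MYB and FOXM1.

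Each library held between 9732498 and 11006834 reads over the rows of the table, and the most abundant row took 16.4% to 23.8% of reads in the Ctrl libraries and 13.8% to 16.5% in the cKO-labelled libraries. The Upf1 row was not lower in the libraries labelled cKO. Its level was 260.0, 203 and 259 normalised reads in the Ctrl libraries and 308, 283 and 299.7 in the cKO-labelled libraries (log2 fold change 0.31 ± 0.0892, as an estimate ± its standard error (SE) here and below, adjusted p = 0.00696). With libraries centred on their median gene the change was 0.20 (adjusted p = 0.0645). That row adds up reads over all exons and cannot check the deletion, so the groups are named below by their labels. Cd79a, whose locus gives up a copy to Cre in the labelled cKO genotype, fell (log2 fold change -1.58 ± 0.0771, adjusted p = 1.24e-11), the direction that the labelled genotypes give. The summed level of 9 B lineage markers (Cd79a, Cd79b, Pax5, Ebf1, Vpreb1, Igll1, Ptprc, Il7r and Rag1) was 2177 to 2441 in the Ctrl libraries and 2036 to 2125 in the cKO-labelled libraries. Cd79a, part of this sum, had a mean of 221 in the Ctrl libraries and 73.3 in the cKO-labelled libraries. Of these 9, Rag1 (log2 fold change 1.55) and Vpreb1 (0.40) rose, Ptprc (-0.84) and Il7r (-0.61) fell besides Cd79a, and the others were not called. Of the 4 markers of stage, Kit rose (log2 fold change 2.07), Il2ra and Cd2 fell (-2.42 and -1.21), and Spn (CD43) was not called (0.057, adjusted p = 0.579). Cd2 had only 18 to 38 reads in the Ctrl libraries and 4 to 10 in the cKO-labelled libraries. Of other cell types, 9 of 9 neutrophil markers had a row, with a summed level of 14.7 to 123 in the Ctrl libraries and 331 to 464 in the cKO-labelled libraries, and 4 of them rose. For 5 of 9 erythroid markers the sums were 20.6 to 25.2 and 13.9 to 19.1, for 7 of 7 monocyte, macrophage and dendritic markers 61.3 to 95.5 and 81.6 to 109, and for the 1 of 7 T cell markers with a row 1.43 to 2.93 and 0.717 to 1.85. No marker with a row was at 0 reads in any library, and Cd3d, Cd3e, Cd3g, Cd4, Cd8a and Trac of T cells and Hba-a1, Hba-a2, Hbb-bs and Hbb-bt of erythroid cells had no row. The part of these cells in the results below was not tested.

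Most of the mitotic genes were lower in the cKO-labelled libraries. By limma across all 13426 genes, 41 of the 53 were called lower at an adjusted p below 0.05, where 25% of all genes were, and 5 were called higher, where 27.7% of all genes were. The lower members fell by 13.7% to 61.5%, and only Cdc25b fell by more than 1 on the log2 scale. Kif15 and Ndc80 led the higher members, followed by Cdc25c, Bub1 and Cenpf. The other 7 (Ttk, Cenpe, Kif4, Kif18b, Kif20b, Kifc1 and Pttg1) were not called. The median log2 fold change of the members was -0.36, beside 0.010 over all genes. Every one of the 41 lower members had its highest cKO-labelled library below its lowest Ctrl library, and the 5 higher members were separated in the opposite direction. Over all genes, 28% were separated downward and 30.9% upward. All 53 stayed in the test under each filter on low levels that was tried.

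The size of this difference depended on how libraries were scaled. When values were divided by the total reads of each library, 20 members were lower (14.4% of all genes) and 6 higher (38.5% of all genes), the members' median was -0.16, and the median of all genes was 0.19. With libraries centred on their median gene, 42 members were lower (32.4% of all genes) and 2 higher (22.3% of all genes), with medians of -0.47 for the members and -0.098 for all genes. On all 3 scales the members' median was below that of all genes. As a share of all reads, the members took 1.66%, 1.49% and 1.83% in the Ctrl libraries and 1.48%, 1.51% and 1.56% in the cKO-labelled libraries, which overlap. All reads here include the most abundant row, which took 22.2%, 23.8% and 16.4% in the Ctrl libraries and 16.5%, 13.8% and 13.9% in the cKO-labelled libraries. The part of that row in the results under total reads was not tested. Without a library, the count of lower members ran from 36 to 42. The count of higher members was 2 without Ctrl library 2 or without cKO library 3 and 3 without cKO library 1 or 2, and Kif15 and Ndc80 were called in each of these. In bulk RNA, fewer cells in mitosis and less of each mRNA per cell cannot be told apart.

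**Figure D1:**
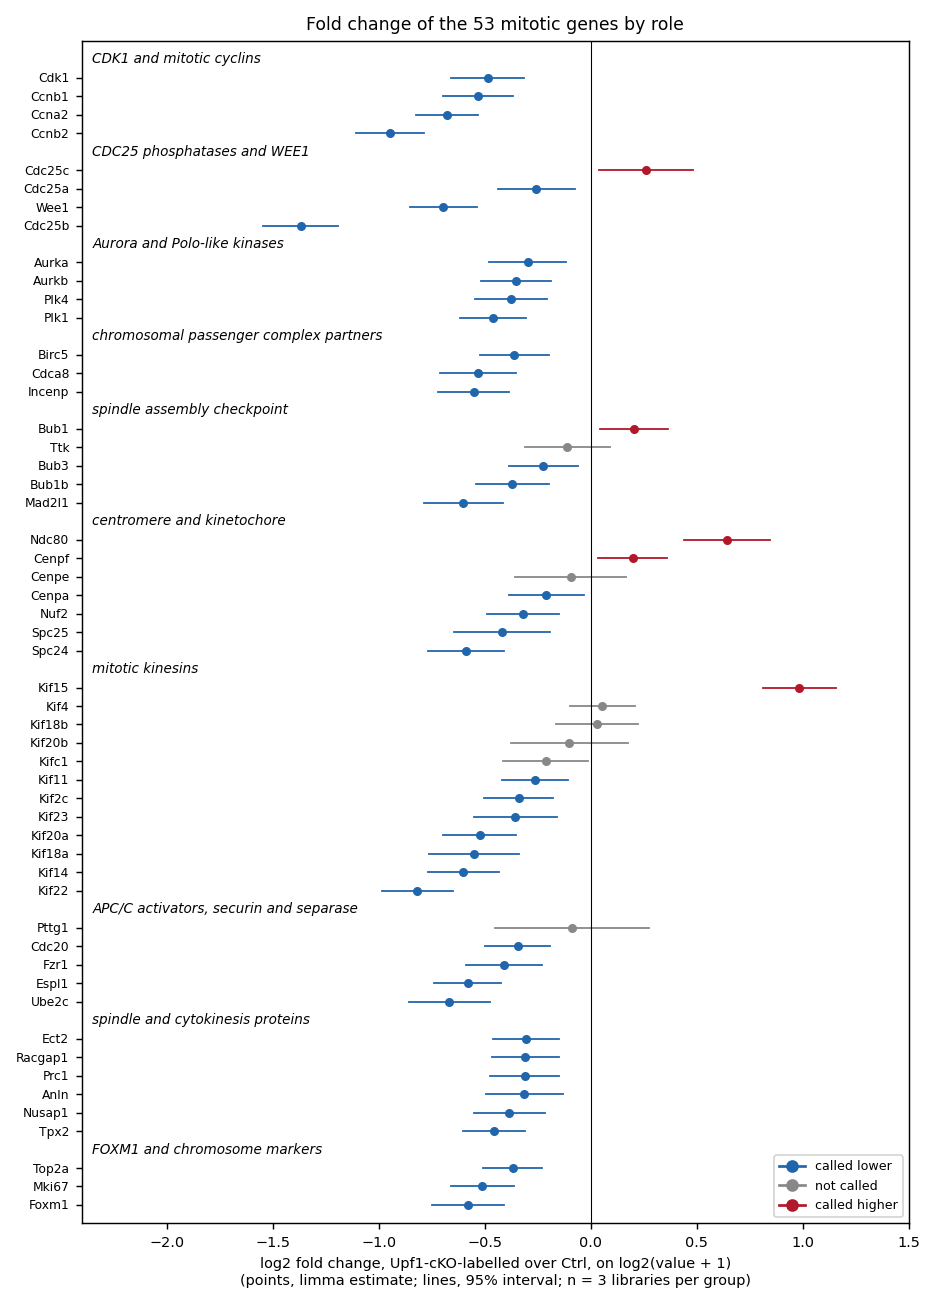
Log2 fold change of each of the 53 genes, cKO-labelled over Ctrl, on log2(normalised reads + 1), grouped by role. Points are limma estimates and lines their 95% intervals (n = 3 libraries per group). The 41 genes in blue were called lower, the 5 in red higher and the 7 in grey were not called, and Cdc25b (-1.37) and Kif15 (0.98) mark the ends of the range.

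Promoter sequence was compared because these genes are known to share late cell cycle elements. RefSeq windows of GRCm38.p6, from 250 bases before to 50 bases after an annotated start, were matched for 44 of the 53 members. Ccna2, Cdc25c, Wee1, Aurkb, Incenp, Spc24, Kif20a, Tpx2 and Foxm1 were not matched. The letters of the cell cycle homology region (CHR), TTTGAA or TTTAAA on either strand, lay in a window of 35 of the 44 members (79.5%), of 22.2% of the other 10149 tested genes with a window, and in 27.6% of all 32851 windows. CCAAT on either strand lay in 32 members (72.7%) and 42.9% of the other tested genes (37.4% of all windows), and both sets of letters in 28 members (63.6%) and 8.96% of the other tested genes (10.7% of all windows). E2F letters (TTTGGCGC, TTTCGCGC, TTCCCGCC or TTTCCCGC, of which the last 2 overlap) lay in 4 members (9.09%) and 7.7% of the other tested genes (3.49% of all windows). The CHR letters were in 26 of the 33 lower members with a window, in 6 of the 7 that were not called and in 3 of the 4 higher members. CCAAT was in 25, 5 and 2 of these, and both in 22, 5 and 1. A match of letters describes the window and shows no binding.

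Windows of 4 genes at the ends of the range are printed 5′ to 3′ on the strand of the gene, with CHR and CCAAT letters, or their reverse complements, in capitals. Ccnb2 (chr9:70421505-70421804, minus strand) is shown as 1 of the 22 lower members with both elements. Cdc25b (chr2:131186698-131186997, plus strand) is the gene that fell most. Kif15 (chr9:122950831-122951130, plus strand) and Ndc80 (chr17:71526808-71527107, minus strand) are the genes that rose most.
Ccnb2: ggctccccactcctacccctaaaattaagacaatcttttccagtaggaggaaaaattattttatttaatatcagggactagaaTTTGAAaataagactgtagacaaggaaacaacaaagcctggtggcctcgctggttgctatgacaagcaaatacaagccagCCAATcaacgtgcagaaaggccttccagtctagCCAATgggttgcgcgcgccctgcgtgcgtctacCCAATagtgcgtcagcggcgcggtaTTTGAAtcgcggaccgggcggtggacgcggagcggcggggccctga
Cdc25b: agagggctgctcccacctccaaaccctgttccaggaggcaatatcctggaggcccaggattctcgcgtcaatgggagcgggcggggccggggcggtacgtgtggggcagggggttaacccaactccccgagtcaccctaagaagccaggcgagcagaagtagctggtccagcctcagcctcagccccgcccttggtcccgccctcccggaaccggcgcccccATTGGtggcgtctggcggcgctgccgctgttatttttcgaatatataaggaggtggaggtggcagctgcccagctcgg
Kif15: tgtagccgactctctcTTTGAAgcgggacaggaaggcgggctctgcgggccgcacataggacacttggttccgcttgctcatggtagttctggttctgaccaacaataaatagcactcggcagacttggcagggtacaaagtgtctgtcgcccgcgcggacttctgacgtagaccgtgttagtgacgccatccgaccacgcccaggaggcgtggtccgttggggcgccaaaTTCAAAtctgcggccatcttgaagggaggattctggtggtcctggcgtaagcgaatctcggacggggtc
Ndc80: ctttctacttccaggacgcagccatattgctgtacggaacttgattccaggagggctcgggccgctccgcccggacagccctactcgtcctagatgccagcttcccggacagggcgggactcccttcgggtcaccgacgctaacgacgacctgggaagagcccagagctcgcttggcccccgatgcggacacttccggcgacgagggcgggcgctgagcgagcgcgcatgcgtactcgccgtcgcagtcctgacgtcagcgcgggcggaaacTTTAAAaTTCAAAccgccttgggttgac
Counting the annotated start as 1, the Ccnb2 window held CCAAT at -87, -54 and -21 and CHR letters at -167 and 5. Cdc25b held 1 reversed CCAAT at -28 and no CHR letters. Kif15 held CHR letters at -234 and, reversed, at -19, the latter directly after reversed E2F letters at -27, and no CCAAT. Ndc80 held CHR letters at 23 and, reversed, at 30, and no CCAAT.

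**Figure D2:**
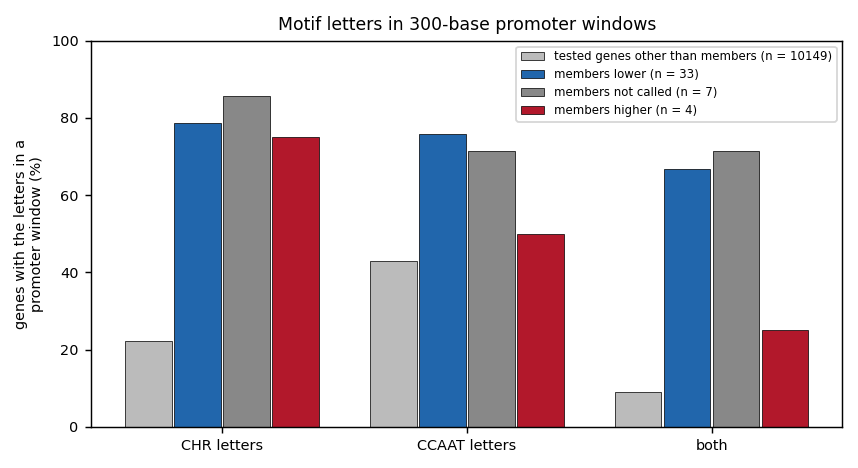
Percentage of genes with CHR letters, CCAAT letters or both in a 300-base promoter window, for the other tested genes and for members called lower, not called and called higher (n in the key). CHR letters were in 22.2% of the other tested genes and in 78.8%, 85.7% and 75% of the 3 classes of members, of which the last rests on 4 genes.

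CDK1 and its mitotic cyclins all fell. Ccnb2, one of the B-type cyclins that activate CDK1, was at 186, 167 and 171 in the Ctrl libraries and 89.8, 89.1 and 90.8 in the cKO-labelled libraries, in normalised reads as for all values below. No cKO-labelled library came near the Ctrl range, and the log2 fold change was -0.95 ± 0.0772 (adjusted p = 1e-08). Ccna2, the cyclin of S phase and G2, was at 437, 424 and 422 in the Ctrl libraries and 268, 256 and 276 in the cKO-labelled libraries (log2 fold change -0.68 ± 0.0695, adjusted p = 1.9e-07). Ccnb1, the main cyclin of mitotic entry, was at 154, 157 and 158 in the Ctrl libraries and 111, 99.0 and 113 in the cKO-labelled libraries (log2 fold change -0.53 ± 0.0789, adjusted p = 1.64e-05). For both genes the groups did not overlap, and the libraries of each group lay close together. Cdk1 mRNA, which encodes the catalytic subunit, was at 163, 147 and 153 in the Ctrl libraries and 99.97, 113 and 117 in the cKO-labelled libraries (log2 fold change -0.49 ± 0.0825, adjusted p = 7.12e-05). Named pseudogene copies of Ccnb1 and Ccnb2 exist, and how reads were split with them is uncertain.

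The enzymes that set the phosphorylation of CDK1 divided. Cdc25b, the phosphatase that starts CDK1 activation, was at 415, 359 and 340.1 in the Ctrl libraries and 153, 133 and 142 in the cKO-labelled libraries. No other member fell as far (log2 fold change -1.37 ± 0.0844, adjusted p = 2.96e-10), and the lowest Ctrl library stood more than 2-fold above the highest cKO-labelled library. Wee1, the kinase that opposes the CDC25 enzymes, was at 144, 139.8 and 136 in the Ctrl libraries and 87.1, 86.0 and 84.8 in the cKO-labelled libraries (log2 fold change -0.69 ± 0.0764, adjusted p = 4.65e-07). Cdc25c, the phosphatase most linked to mitotic entry, was at 38.7, 33.5 and 38.9 in the Ctrl libraries and 39.7, 46.8 and 47.3 in the cKO-labelled libraries, and it was called higher with the lowest cKO-labelled library just above the highest Ctrl library (log2 fold change 0.26 ± 0.105, adjusted p = 0.0448). Its log2 fold change was 0.19 (adjusted p = 0.157) without Ctrl library 2, 0.22 (adjusted p = 0.153) without cKO library 2 and 0.22 (adjusted p = 0.17) without cKO library 3, and the fit with a replicate block gave an adjusted p of 0.0563. With libraries centred on their median gene the change of Cdc25c was 0.15 (adjusted p = 0.232), and quantile normalization and DESeq2 did not call it either (adjusted p = 0.0628 and 0.0824). It kept the call under total reads, at 0.46 (adjusted p = 0.00269), and with the length and GC trend removed, at 0.30 (adjusted p = 0.0224). Cdc25a, which also acts at entry into S phase, had a log2 fold change of -0.26 ± 0.0865 (adjusted p = 0.0175), and -0.20 (adjusted p = 0.0731), -0.24 (adjusted p = 0.0752) and -0.22 (adjusted p = 0.0902) without Ctrl library 2, cKO library 2 and cKO library 3. On the total-reads scale Cdc25a was at -0.056 (adjusted p = 0.624). Cdc25b overlaps Spef1, and Cdc25c overlaps Gm3550, each on the opposite strand, and reads were counted without strand, so reads of the partners cannot be told apart.

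All 4 Aurora and Polo-like kinases fell, by 18.6% to 27.5%. Plk1, the kinase of centrosome maturation and spindle assembly, was at 179.7, 185 and 175 in the Ctrl libraries and 127, 130.2 and 134 in the cKO-labelled libraries (log2 fold change -0.46 ± 0.0740, adjusted p = 4e-05). Plk4, which starts centriole duplication, was at 158, 135 and 152 in the Ctrl libraries and 111, 114 and 118 in the cKO-labelled libraries (log2 fold change -0.38 ± 0.0808, adjusted p = 0.000709). Aurkb, the kinase that corrects chromosome attachment, was at 239, 221 and 205 in the Ctrl libraries and 167, 168 and 184 in the cKO-labelled libraries (log2 fold change -0.35 ± 0.0793, adjusted p = 0.00107). These 3 kept the call whichever library was left out. Aurka, the spindle pole kinase, was at 112, 111 and 116 in the Ctrl libraries and 95.3, 82.0 and 98.8 in the cKO-labelled libraries (log2 fold change -0.30 ± 0.0858, adjusted p = 0.00688), and its change was -0.22 (adjusted p = 0.0663) without cKO library 2. Under scaling by total reads only Plk1 of the 4 was called lower.

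The partners of Aurora B in the chromosomal passenger complex fell as well. Incenp, the scaffold that activates the kinase, was at 498, 446 and 553 in the Ctrl libraries and 330.4, 352 and 334 in the cKO-labelled libraries (log2 fold change -0.55 ± 0.0797, adjusted p = 1.24e-05). Cdca8 (borealin), which places the complex at centromeres, was at 139, 138 and 163 in the Ctrl libraries and 99.1, 106 and 97.2 in the cKO-labelled libraries (log2 fold change -0.53 ± 0.0846, adjusted p = 3.55e-05). Birc5 (survivin) was at 164, 164 and 182 in the Ctrl libraries and 127, 132 and 138 in the cKO-labelled libraries (log2 fold change -0.36 ± 0.0777, adjusted p = 0.000739). On the total-reads scale Birc5 was at -0.16 (adjusted p = 0.148) and the other two kept the call. In none of the 3 did the groups overlap, and Ctrl library 3 was the highest of its group in each.

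Among the checkpoint genes, 3 of 5 fell and 1 rose. Mad2l1 (MAD2), the inhibitor of the APC/C, was at 129.7, 129 and 157 in the Ctrl libraries and 89.7, 94.4 and 88.0 in the cKO-labelled libraries (log2 fold change -0.60 ± 0.0882, adjusted p = 1.51e-05). Bub1b (BUBR1), its partner in the checkpoint complex, was at 443, 438 and 535 in the Ctrl libraries and 345, 379 and 366 in the cKO-labelled libraries (log2 fold change -0.37 ± 0.0817, adjusted p = 0.000891). Bub3, which docks both BUB proteins at kinetochores, was at 214, 228 and 226 in the Ctrl libraries and 182, 183 and 208 in the cKO-labelled libraries (log2 fold change -0.22 ± 0.0773, adjusted p = 0.0203). For these 3 the groups did not overlap. Under scaling by total reads only Mad2l1 of the 3 was called lower, with Bub1b at -0.17 (adjusted p = 0.159) and Bub3 at -0.022 (adjusted p = 0.85). Under quantile normalization these were -0.17 (adjusted p = 0.0709) and -0.13 (adjusted p = 0.155). The fall of Bub3 was not called without cKO library 1, at -0.19 (adjusted p = 0.112), or without cKO library 2, at -0.19 (adjusted p = 0.101). Bub1, the kinase that recruits the others, was higher, at 163, 161 and 170.4 in the Ctrl libraries and 191, 177 and 203 in the cKO-labelled libraries (log2 fold change 0.20 ± 0.0768, adjusted p = 0.0317). Bub1 missed the threshold without Ctrl library 2, at 0.19 (adjusted p = 0.0648), without cKO library 1, at 0.20 (adjusted p = 0.0982), and without cKO library 3, at 0.16 (adjusted p = 0.178). With libraries centred on their median gene, the change of Bub1 was 0.096 (adjusted p = 0.293), and DESeq2 gave an adjusted p of 0.0518. The change was larger under total reads, at 0.41 (adjusted p = 0.000635), and under quantile normalization, at 0.30 (adjusted p = 0.00294). Ttk (MPS1), the kinase at the head of the checkpoint, was not called, with a log2 fold change of -0.11 ± 0.0958 (adjusted p = 0.35).

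The centromere and kinetochore genes included members that moved in opposite directions within 1 complex. Ndc80, the subunit of the NDC80 complex that grips microtubules, was at 122, 97.1 and 129 in the Ctrl libraries and 181, 169 and 193 in the cKO-labelled libraries. All 3 cKO-labelled libraries were above all 3 Ctrl libraries (log2 fold change 0.64 ± 0.0969, adjusted p = 2.17e-05). The other 3 subunits of that complex fell. Spc24 was at 94.0, 96.0 and 106 in the Ctrl libraries and 63.3, 65.1 and 67.6 in the cKO-labelled libraries (log2 fold change -0.59 ± 0.0845, adjusted p = 1.19e-05). Spc25 was at 69.0, 61.6 and 82.2 in the Ctrl libraries and 46.5, 56.0 and 55.2 in the cKO-labelled libraries (log2 fold change -0.42 ± 0.108, adjusted p = 0.00319). Nuf2, the direct partner of Ndc80, had a log2 fold change of -0.32 ± 0.0809 (adjusted p = 0.0028). With values divided by total reads, Ndc80 was still called higher and Spc24 lower, and Nuf2 was at -0.12 (adjusted p = 0.311) and Spc25 at -0.22 (adjusted p = 0.148). Cenpf, a large protein of the outer kinetochore, was at 762, 694 and 872 in the Ctrl libraries and 886, 881 and 891 in the cKO-labelled libraries (log2 fold change 0.20 ± 0.0781, adjusted p = 0.0415). The highest Ctrl library of Cenpf lay just under the cKO-labelled libraries, and leaving out 1 library removed the call in 5 of 6 cases, with log2 fold changes from 0.12 (without Ctrl library 2) to 0.20 (without cKO library 2), and the replicate block gave an adjusted p of 0.0567. With libraries centred on their median gene the change of Cenpf was 0.088 (adjusted p = 0.359), and edgeR, DESeq2 and removal of the length and GC trend did not call it either (adjusted p = 0.0725, 0.0797 and 0.0668). The change of Cenpf was larger under total reads, at 0.40 (adjusted p = 0.00159), and under quantile normalization, at 0.49 (adjusted p = 1.99e-05). Cenpa, the histone H3 variant of centromeres, had a log2 fold change of -0.21 ± 0.0838 (adjusted p = 0.0435) and, scaled by total reads, -0.0064 (adjusted p = 0.96). It was not called without Ctrl library 1 (-0.13, adjusted p = 0.165) or without cKO library 1 (-0.24, adjusted p = 0.0612), 2 (-0.16, adjusted p = 0.19) or 3 (-0.22, adjusted p = 0.0954). Quantile normalization (-0.11, adjusted p = 0.294) and eBayes without trend (adjusted p = 0.14) did not call Cenpa either. Cenpe, the kinetochore kinesin, ranged from 355 to 521 among the Ctrl libraries and was not called (-0.095 ± 0.119, adjusted p = 0.535).

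The 12 mitotic kinesins held the widest range, with 7 called lower, 1 higher and 4 not called. Kif15, a motor that holds spindle poles apart alongside Kif11, was at 334, 294 and 372 in the Ctrl libraries and 639, 636 and 698 in the cKO-labelled libraries. The cKO-labelled libraries were nearly double the Ctrl libraries, with no overlap (log2 fold change 0.98 ± 0.0828, adjusted p = 1.49e-08). Kif22, the chromosome-arm motor, was at 277, 245 and 243 in the Ctrl libraries and 142, 136 and 155 in the cKO-labelled libraries (log2 fold change -0.82 ± 0.0806, adjusted p = 1.18e-07). Kif14, a motor of cytokinesis, was at 228, 198 and 232 in the Ctrl libraries and 139, 148 and 144 in the cKO-labelled libraries (log2 fold change -0.60 ± 0.0798, adjusted p = 4.73e-06). For both, every cKO-labelled library was below every Ctrl library. The other 5 lower kinesins (Kif18a, Kif20a, Kif23, Kif2c and Kif11) had log2 fold changes from -0.55 to -0.26. After division by total reads 3 of these were not called, Kif23 at -0.15 (adjusted p = 0.261), Kif2c at -0.14 (adjusted p = 0.197) and Kif11 at -0.059 (adjusted p = 0.594). Kif11 (Eg5), the main motor of spindle bipolarity, was not called without cKO library 2, at -0.22 (adjusted p = 0.0534), or under quantile normalization, at -0.066 (adjusted p = 0.485). With eBayes without trend, Kif11 and Kif23 were not called (adjusted p = 0.0575 and 0.0512). Kif4, Kif18b, Kif20b and Kifc1 had log2 fold changes of 0.055, 0.030, -0.10 and -0.21. Of these, Kif20b was called lower without Ctrl library 2, at -0.25 (adjusted p = 0.0357), and so was Kifc1, at -0.32 (adjusted p = 0.00641). Kifc1 was also called lower under median centring, at -0.32 (adjusted p = 0.00947), and with the length and GC trend removed, at -0.27 (adjusted p = 0.022). Kif4 was called higher under scaling by total reads, at 0.26 (adjusted p = 0.015), and under quantile normalization, at 0.18 (adjusted p = 0.0444). Kifc1 has a close copy, Kifc5b, with 476 to 713 reads in the same libraries, and Kif22 and Kif4 have named pseudogenes, so the division of reads between copies is uncertain.

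Of the genes that drive the exit from mitosis, 4 of 5 fell. Ube2c, the ubiquitin-conjugating enzyme of the APC/C, was at 89.2, 83.2 and 98.4 in the Ctrl libraries and 53.2, 60.0 and 56.0 in the cKO-labelled libraries (log2 fold change -0.67 ± 0.0905, adjusted p = 6.18e-06). Espl1 (separase), the protease that cleaves cohesin, was at 306, 273 and 271 in the Ctrl libraries and 193, 184 and 189.9 in the cKO-labelled libraries (log2 fold change -0.58 ± 0.0751, adjusted p = 3.42e-06). Fzr1 (CDH1), the activator of the APC/C in late mitosis and G1, was at 126, 112 and 109 in the Ctrl libraries and 91.1, 82.0 and 87.5 in the cKO-labelled libraries (log2 fold change -0.41 ± 0.0850, adjusted p = 0.000535). The groups did not overlap for any of these. Cdc20, the activator in metaphase, had a log2 fold change of -0.34 ± 0.0735 (adjusted p = 0.000671). Pttg1 (securin) was the member with the fewest reads, from 74 in its lowest library, and was not called (log2 fold change -0.089 ± 0.173, adjusted p = 0.688). Under scaling by total reads 2 of the 5, Ube2c and Espl1, were called lower, with Cdc20 at -0.14 (adjusted p = 0.141) and Fzr1 at -0.21 (adjusted p = 0.0569). The other members had at least 331 reads in each library.

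All 6 genes of the spindle and cytokinesis group fell, within a narrow range of -0.46 to -0.31 on the log2 scale. Tpx2, which activates Aurora A on the spindle, was at 433, 432 and 473 in the Ctrl libraries and 329, 326 and 318 in the cKO-labelled libraries (log2 fold change -0.46 ± 0.0703, adjusted p = 2.52e-05). Nusap1, a microtubule bundler, was at 232, 220.2 and 252 in the Ctrl libraries and 169, 177 and 193 in the cKO-labelled libraries (log2 fold change -0.38 ± 0.0794, adjusted p = 0.000509). Anln (anillin), the scaffold of the contractile ring, was at 219.8, 177 and 221 in the Ctrl libraries and 166, 158 and 171 in the cKO-labelled libraries (log2 fold change -0.31 ± 0.0873, adjusted p = 0.00562). Prc1, which crosslinks midzone microtubules, and Ect2 and Racgap1, which activate RhoA at the cleavage site, had changes of -0.31, -0.31 and -0.31. Under scaling by total reads 1 of the 6, Tpx2, was called lower. Quantile normalization did not call Prc1 (-0.18, adjusted p = 0.0627), and eBayes without trend did not call Anln (adjusted p = 0.0551).

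Foxm1, the transcription factor of the G2 and M programme, was at 246, 209 and 210.1 in the Ctrl libraries and 150.2, 144 and 149 in the cKO-labelled libraries (log2 fold change -0.58 ± 0.0800, adjusted p = 7.57e-06). Mki67, which coats mitotic chromosomes and is the usual marker of cycling cells, was at 3483, 3176 and 3814 in the Ctrl libraries and 2406, 2489 and 2431 in the cKO-labelled libraries (log2 fold change -0.51 ± 0.0708, adjusted p = 7.83e-06). Top2a, the topoisomerase that untangles sister chromatids, was at 2599.8, 2544 and 2802 in the Ctrl libraries and 2093, 1968 and 2090.4 in the cKO-labelled libraries (log2 fold change -0.37 ± 0.0659, adjusted p = 0.000123). All 3 were lower in every cKO-labelled library. Top2a was not called under scaling by total reads, at -0.16 (adjusted p = 0.0879), or under quantile normalization, at -0.063 (adjusted p = 0.469), and Mki67 was not called under quantile normalization, at -0.18 (adjusted p = 0.0524). Per kilobase of the longest annotated transcript, Top2a (507 in Ctrl and 393 in cKO-labelled libraries) and Mki67 (347 and 243) had the highest levels of the set and Pttg1 (6.33 and 5.81) the lowest. The summed level of the 53 members was 17907, 16583 and 18870 (Ctrl) and 14011, 13970 and 14436 (cKO-labelled), and without Mki67 and Top2a it was 11824, 10863 and 12254 against 9512, 9513 and 9914.

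**Figure D3:**
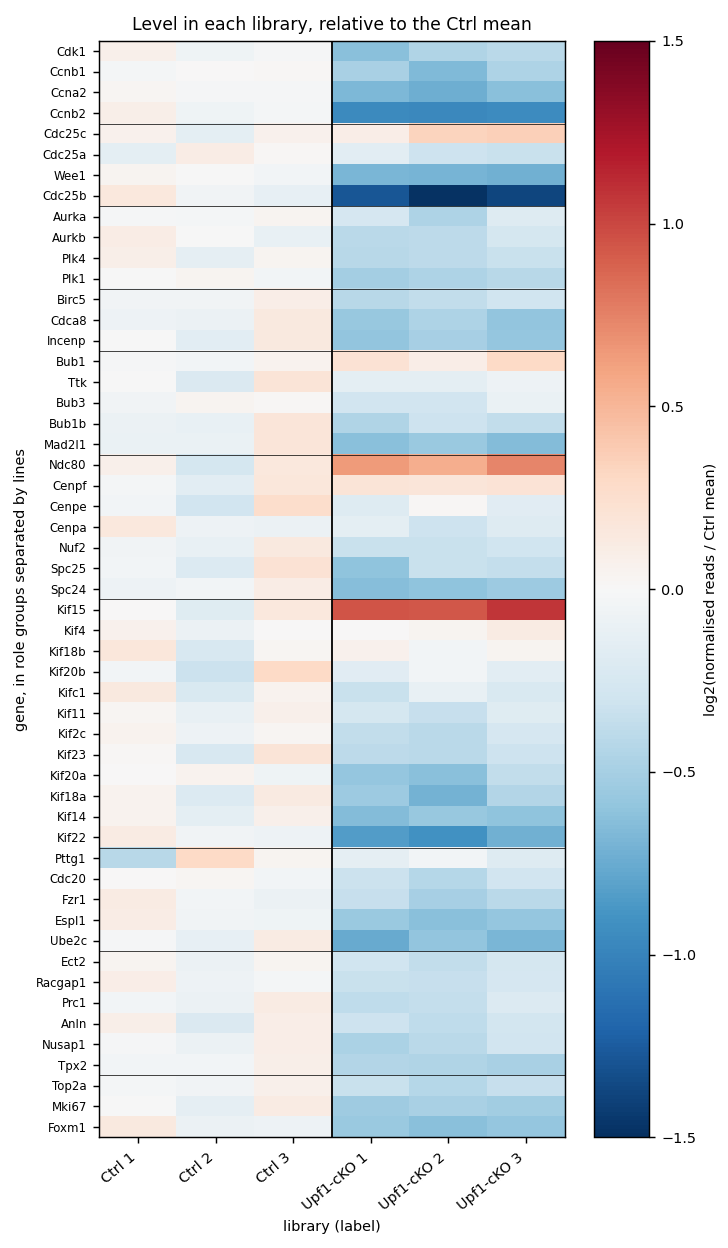
Level of each member in each of the 6 libraries, as log2 of its normalised reads over the mean of the 3 Ctrl libraries (colour), with members in rows by role. The 3 cKO-labelled columns are blue for the 41 lower genes and red for Kif15 and Ndc80, and Ctrl library 3 was the highest of its group for 29 of the 53 members.

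Ratios of 2 members within a library do not depend on scaling, and 14 pairs of related genes were compared. With 3 libraries against 3, exact permutation of the labels (two-sided, 20 arrangements) can give no p below 0.1, which is 0.14 after Benjamini-Hochberg adjustment over the pairs, so no pair could pass the threshold. The ratio of Kif15 to Kif11 was 0.511, 0.494 and 0.549 in the Ctrl libraries and 1.20, 1.26 and 1.23 in the cKO-labelled libraries, a 2.38-fold difference. The ratio of Ndc80 to Nuf2 was 0.766, 0.634 and 0.709 in the Ctrl libraries and 1.38, 1.30 and 1.44 in the cKO-labelled libraries, a 1.95-fold difference. In both pairs the gene with fewer reads in Ctrl became the one with more in every cKO-labelled library. The ratio of Cdc25a to Cdc25b was 0.285, 0.394 and 0.390 in the Ctrl libraries and 0.769, 0.792 and 0.729 in the cKO-labelled libraries, a 2.17-fold difference. Groups also did not overlap for Cdc25b to Cdc25c, Bub1 to Bub1b, Kif18a to Kif18b, Ccnb1 to Ccnb2, Cenpe to Cenpf, Espl1 to Pttg1 and Birc5 to Incenp (p = 0.1 for each in the exact test). Single genes often separated between the groups too, 28% of them downward and 30.9% upward. The groups overlapped for Aurka to Aurkb (log2 difference 0.053, exact p = 0.7), Cdc20 to Fzr1 (0.067, exact p = 0.5), Kif20a to Kif20b (-0.43, exact p = 0.2) and Spc24 to Spc25 (-0.17, exact p = 0.2).

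**Figure D4:**
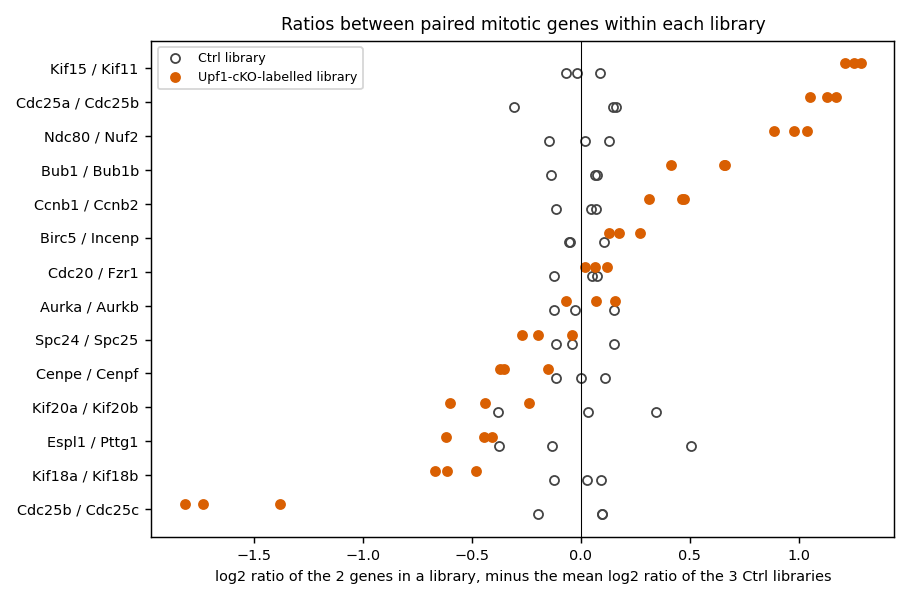
Log2 ratio of 2 members within each library, minus the mean of the 3 Ctrl libraries, with open points for Ctrl and filled points for cKO-labelled libraries. Kif15 to Kif11 rose by 1.25 and Cdc25b to Cdc25c fell by 1.64 on the log2 scale.

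Properties of the transcripts, which the choice of members did not use, are given as descriptions. The GC content of the longest transcript had a median of 47.8% over the 41 lower members, 46.0% over the 7 that were not called and 42.7% (from 41.0% to 44.1%) over the 5 higher members. Across the 53 genes, the Spearman correlation of log2 fold change with GC content was -0.35, and with the number of exons 0.32. Across all genes with values these were 0.041 and 0.17. For transcript length, length after the stop codon and mean level the members' correlations were 0.13, -0.20 and 0.12, and those of all genes 0.098, 0.022 and -0.18. At least 1 annotated NMD transcript was listed in GENCODE M21 for 13 of the 41 lower members (31.7%), 2 of the 7 not called and 4 of the 5 higher (Kif15, Ndc80, Cdc25c and Cenpf, but not Bub1). Over all genes it was listed for 22.0% of those called lower, 27.6% of those not called and 36.9% of those called higher. Genes share base composition and transcript length, and are not independent replicates. Of the members, 33 overlap another annotated gene, among them Kif15 (Gm47148) and Ndc80 (Gm23115), each on the same strand.

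Other genes were taken from 12 lists, of which 182 of 187 genes had a row. The lists cover mitosis and its regulators, S phase genes and kinesins of transport in interphase, so the pooled counts mix these. Of these, 78 were lower and 35 higher, with a median log2 fold change of -0.16. Without the S phase list 58 of 159 were lower and 34 higher, with a median of -0.12. Over all genes 25% were lower and 27.7% higher. Under scaling by total reads the counts were 50 and 55, or 33 and 54 without the S phase list, where 14.4% of all genes were lower and 38.5% higher and the median of all genes was 0.19. Among S phase genes 20 of 23 fell and 1 rose (median -0.76), or 17 and 1 under total reads (median -0.55), led by Mcm4 (-1.14), a subunit of the replicative helicase, and Cdt1 (-1.08), which loads it. Condensin, which compacts chromosomes, had 6 of 8 subunits lower and 1 higher (median -0.40), or 4 and 1 under total reads (median -0.19), with the largest changes in Ncaph (-0.45) and Ncapg2 (-0.45), and the subunit that rose was Smc4 (log2 fold change 0.44), at 697, 659 and 792 against 941, 953 and 1005. Phosphatases of mitotic exit had 9 of 15 lower and 1 higher (median -0.29), or 5 and 1 under total reads (median -0.091), with Ppp1cc, a catalytic subunit of PP1, at -1.06 and Cdc14b at 0.99. Other mitotic kinases had 8 of 15 lower and 3 higher (median -0.25), or 5 and 5 under total reads (median -0.049), led by Plk2 (-1.44) and the centrosomal kinase Nek2 (-0.80).

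Nearer the chromosome, the constitutive centromere network had 9 of 20 genes lower and 3 higher (median -0.26), or 6 and 5 under total reads (median -0.064), led by Mis18a (-0.73), which licenses CENP-A loading, and Cenpl (-0.72). The outer kinetochore had 1 of 13 lower and 5 higher (median -0.027), or 0 and 6 under total reads (median 0.18). Nsl1, a subunit of the MIS12 complex, was at 84.8, 73.4 and 70.9 in the Ctrl libraries and 204, 190.3 and 213 in the cKO-labelled libraries, with no overlap (log2 fold change 1.40 ± 0.0855, adjusted p = 2.72e-10), followed by Zwilch (0.39) of the RZZ complex. Other checkpoint factors and shugoshins had 5 of 7 lower and 1 higher (median -0.25), or 0 and 2 under total reads (median -0.043), with Sgo2a, a protector of centromeric cohesin, at -0.43 and Trip13, which dismantles the checkpoint complex, at 0.43. APC/C subunits had 4 of 14 lower and 2 higher (median -0.044), or 3 and 5 under total reads (median 0.16), with Anapc16 at 1.08 and Anapc13 at -0.89.

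At the spindle poles, spindle assembly factors and augmin had 6 of 19 lower and 4 higher (median -0.12), or 4 and 8 under total reads (median 0.085), led by Haus4 (-0.68) of augmin and Ckap2l (-0.66). Centrosome and centriole genes had 3 of 18 lower and 5 higher (median 0.020), or 2 and 9 under total reads (median 0.22). Cep152, the centriolar receptor of PLK4, was at 112, 92.9 and 109 in the Ctrl libraries and 262, 273 and 269 in the cKO-labelled libraries (log2 fold change 1.35 ± 0.0819, adjusted p = 2.38e-10), and Tubgcp4 of the γ-tubulin ring was next (0.78). Kinesins of transport in interphase had 1 of 16 lower and 8 higher (median 0.25), or 0 and 10 under total reads (median 0.45). The mitotic kinesins had a median of -0.30, or -0.098 under total reads. Kif9, a low gene, was at 1.97, 1.87 and 1.74 in the Ctrl libraries and 11.3, 10.7 and 10.2 in the cKO-labelled libraries, and Kif7, the ciliary kinesin of Hedgehog signalling, had a log2 fold change of 1.37. The DREAM, MuvB and B-MYB list, the regulators of the CHR promoters, had 6 of 14 lower and 1 higher (median -0.21), or 4 and 2 under total reads (median -0.010), led by Rbbp4 (-0.67) of MuvB and Tfdp1 (-0.66), the partner of E2F proteins.

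**Figure D5:**
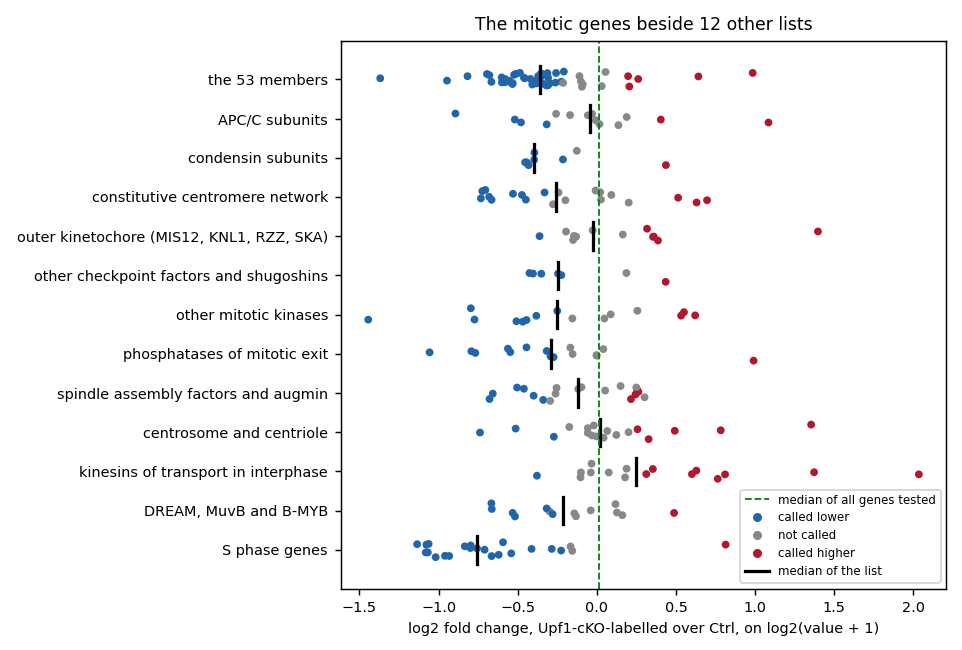
Log2 fold change (cKO-labelled over Ctrl, on log2(normalised reads + 1)) of each gene of the set and of 12 other lists. Black bars are list medians and the dashed line the median of all genes (0.010). The S phase list lies lowest (median -0.76), the interphase kinesins highest (0.25), and Nsl1, Cep152 and Kif9 stand at 1.40, 1.35 and 2.03.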

How the data were processed

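RNA was ribosome-depleted, and directional libraries were sequenced as single reads, mapped to mm10 and counted without strand. The submitters' processing notes name cutadapt 4.0, HISAT2, featureCounts 2.0.1 and limma 3.48.0, and the authors deposited 1 table of normalised values, a signal on a linear scale. From the values, each deposited signal was (reads + 0.5) per 1000000 of an effective library size, and between 99.99% and 100% of values per library gave whole reads within 0.01, so reads were recovered for the count tests. The main test was limma 3.58.1 on log2(value + 1) with trended, robust eBayes in R 4.3.3, group only, with Benjamini-Hochberg adjustment over 13426 genes and calls at 0.05. SE is the moderated standard error and no low-value filter was used. On the recovered reads edgeR 4.0.16, DESeq2 1.42.0 and voom called 3651, 3312 and 3674 genes higher and 3343, 3281 and 3337 lower, where limma called 3725 and 3351. Adding 1 understates the fold changes of low genes. Libraries of nearly equal total reads (9732498 to 11006834) measured the members at 74 to 38404 reads, and intervals cover the spread between libraries. Effective library sizes differed more, as the value of 1 read ran from 0.0993 to 0.106 in the Ctrl libraries and 0.0843 to 0.0976 in the cKO-labelled libraries.

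Members and lists were chosen with earlier results of these data known. Members given by library were those called higher, the 3 with the largest change per role among those called, and Aurka, Aurkb, Plk1, Cdk1, Ccnb1, Foxm1, Mki67 and Top2a. In each other list the 2 called genes with the largest change were named, and other genes were named after their values were seen. Gene names, coordinates and promoters came from RefSeq (GRCm38.p6, 13008 of 13426 identifiers matched) and transcripts from GENCODE M21 (12155 genes, 90.5%). 1 marker of the B lineage list is not reported here.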

Additional observations from a re-analysis of the deposited data

How the results depend on the processing

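There were 19 alternatives: edgeR, DESeq2 and voom on recovered reads, other pseudocounts, filters and scalings, eBayes without trend, a replicate block, removal of a length and GC trend, and each library left out. No member was called in the opposite direction under any of them. The count of lower members was 20 under scaling by total reads and 33 to 42 under the other settings. Quantile normalization lost the calls of Cdc25a, Cdc25c, Bub1b, Bub3, Cenpa, Kif11, Prc1, Mki67 and Top2a. With eBayes without trend the calls of Cdc25a, Cdc25c, Bub1, Bub3, Cenpa, Cenpf, Kif11, Kif23 and Anln were lost. The count of higher members was 2 with DESeq2, median centring or eBayes without trend, 3 with the replicate block, and from 2 to 5 with a library left out. The 12 other lists together gave 50 of 182 lower and 55 higher under total reads, where 14.4% of all genes were lower and 38.5% higher. The members' median was -0.47 under median centring, -0.16 under total reads and -0.26 under quantile normalization. Changes of genes that were not called turned sign. Under total reads these were Ttk (0.092), Cenpe (0.11), Kif20b (0.10) and Pttg1 (0.097), under quantile normalization Cenpe (0.11) and Kif20b (0.034), under median centring Kif4 (-0.054) and Kif18b (-0.078), and with the trend removed Kif18b (-0.065). With a library left out, Cenpe ran from -0.23 to 0.048, Kif18b from -0.082 to 0.12, Kif20b from -0.25 to 0.058 and Pttg1 from -0.27 to 0.058. Cenpe and Kif20b turned without Ctrl library 3, and Kif18b and Pttg1 without Ctrl library 2. The log2 difference in the ratio of Aurka to Aurkb ran from -0.0099 (without Ctrl library 1) to 0.13. The cause of these changes was not tested. Over single members, 917 values kept direction and side of the threshold, 71 lost the call, 6 gained it and 13 changed sign.

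The replicate numbers are shared between the groups, and the column headers give adjacent numbers to same-numbered libraries. What the header numbers stand for is not stated. The pairing was not borne out: correlations of the deviations of same-numbered libraries were 0.082, -0.030 and -0.021. The fit with the replicate block called 41 members lower and 3 higher, without Cdc25c and Cenpf.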
